A study of Mus musculus with 2 samples.

Results

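Cholesterol synthesis enzymes were compared between a hybridized and a live sample of mouse iPSCs, which are induced pluripotent stem cells made by reprogramming somatic cells. The 10 genes were chosen by their place in the mevalonate and sterol route, by a rule that uses no measured value but was written with earlier results of these data known, out of 12393 genes that a probe set of the array measures alone, and they are described in the order of their steps. The study asked how RNA of hybridized cells compares with that of live cells, and measured polyA RNA on 1 array for the hybridized sample and 1 array for the live sample. Both samples were iPSCs kept in 2i with serum in mouse embryonic stem cell medium, 2i being a pair of kinase inhibitors that holds cells in the naive state. The labels give no cell line, clone, genotype, sex, age or passage, and leave unstated what was hybridized to the cells. With 1 array per group there is no test and no error between replicates, and precision is limited by that number of arrays.

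Cells build cholesterol from acetyl-CoA. The mevalonate arm joins acetyl units to mevalonate and turns it into isoprenoid units and then farnesyl diphosphate, which also feeds protein prenylation, dolichol and ubiquinone. The sterol arm joins farnesyl units to squalene, closes the rings to lanosterol and trims that to cholesterol. When sterol in the endoplasmic reticulum is low, the escort protein Scap carries SREBP transcription factors to the Golgi, where proteases release their active part, and most genes of the route are known targets of it, usually together with the factors NF-Y and Sp1.

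The upstream promoter sequence is shown for 4 members: Mvd, Cyp51 and Hsd17b7, which were at least 2-fold apart between the arrays, and Hmgcs1, whose probe sets spanned the widest range of differences among those whose mean log2 value reached 5. Of the 10 members, 7 matched the RefSeq promoter table (build GRCm38.p6) by gene ID, and Fdps, Fdft1 and Sqle did not. Each sequence is the 250 bases before the annotated start, 5′ to 3′ on the gene's strand. The Hmgcs1 window lies at chr13:119690101-119690350 on the plus strand, that of Mvd at chr8:122443423-122443672 on the minus strand, that of Cyp51 at chr5:4104698-4104947 on the minus strand and that of Hsd17b7 at chr1:169969206-169969455 on the minus strand. Capitals mark matches on either strand to CACNCCAC, a core of the sterol regulatory element bound by SREBP, to CCAAT, the NF-Y box, and to GGGCGG, the Sp1 box.
Hmgcs1: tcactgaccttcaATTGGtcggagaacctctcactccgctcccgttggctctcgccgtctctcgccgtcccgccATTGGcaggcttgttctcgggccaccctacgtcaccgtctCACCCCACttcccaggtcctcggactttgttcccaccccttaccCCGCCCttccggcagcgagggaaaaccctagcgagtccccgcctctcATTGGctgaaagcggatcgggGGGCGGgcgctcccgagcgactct
Mvd: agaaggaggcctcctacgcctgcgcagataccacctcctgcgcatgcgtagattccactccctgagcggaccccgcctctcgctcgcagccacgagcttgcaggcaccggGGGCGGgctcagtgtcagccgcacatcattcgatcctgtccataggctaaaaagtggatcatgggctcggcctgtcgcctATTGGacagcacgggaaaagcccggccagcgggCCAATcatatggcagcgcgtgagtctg
Cyp51: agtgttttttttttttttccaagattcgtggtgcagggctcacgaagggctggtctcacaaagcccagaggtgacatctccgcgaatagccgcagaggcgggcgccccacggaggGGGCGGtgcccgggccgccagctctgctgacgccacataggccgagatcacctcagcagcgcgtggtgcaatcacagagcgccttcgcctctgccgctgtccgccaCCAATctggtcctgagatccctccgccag
Hsd17b7: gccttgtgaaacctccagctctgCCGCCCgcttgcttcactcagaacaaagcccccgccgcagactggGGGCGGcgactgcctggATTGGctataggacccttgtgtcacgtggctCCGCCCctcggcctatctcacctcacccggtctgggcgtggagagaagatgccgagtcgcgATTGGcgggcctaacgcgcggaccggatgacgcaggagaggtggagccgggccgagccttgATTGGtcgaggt

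Hmgcs1 held the sterol regulatory core, from 136 to 129 bases before its start, and was the only 1 of the 7 matched members to hold it, against 6.05% of 27025 genes in the table. A CCAAT box, or ATTGG on the other strand, was present in all 7 matched members, in 1 of the 2 windows of Pmvk, against 37.5% of genes. The Sp1 box, GGGCGG or CCGCCC, was present in 6 of the 7, all but Pmvk, against 35.4% of genes. Hmgcs1 and Hsd17b7 each held 3 NF-Y boxes and Mvd held 2, whereas Cyp51 held 1. No match overlapped another within the 4 windows shown. Both the gene that was at least 2-fold lower (Mvd) and those that were higher (Cyp51 and Hsd17b7) held NF-Y and Sp1 boxes. A match describes the letters of the window and is not a measured binding site.

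The 10 enzymes did not differ in 1 direction. In the hybridized sample Fdps, Hsd17b7 and Cyp51 were higher by 2-fold or more, Mvd was lower by 2-fold or more, and the other 6 lay within 2-fold. Each difference is hybridized minus live on the deposited log2 scale, read at the probe set of the gene that has the highest mean signal, and 2-fold is a size of at least 1 on that scale. Pairs of log2 values below give the hybridized sample first. The median over the members was -0.29 and the mean 0.12, opposite in sign because Fdps stood far above the rest. Over all 7262 genes compared, those whose mean log2 value reached 5, the median was -0.17 and the SD over genes 0.86. Of these, 8.43% were 2-fold or more higher and 15.4% were 2-fold or more lower, beside 3 and 1 of the 10 members. All 10 members had a mean of 5 or more, but Hsd17b7 passed that limit only through the hybridized array, where its value was the higher, and would not have been compared had both arrays read as the live one did. In such bulk RNA, fewer cells that express a gene and less of its RNA per cell cannot be told apart, nor can hybridization and any other difference between these 2 preparations.

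**Figure D1:**
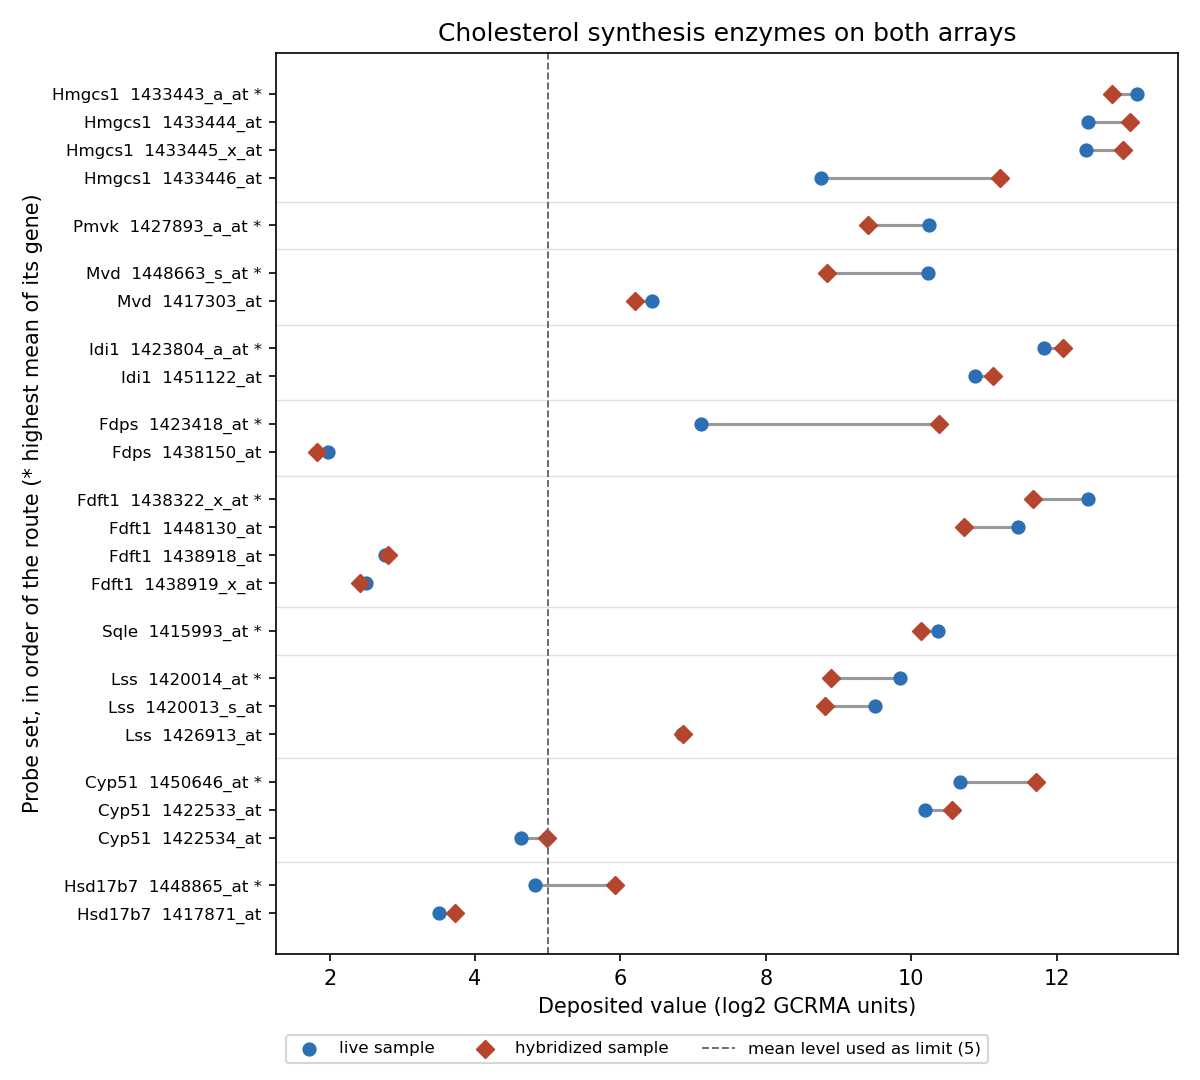
Deposited log2 values of all 24 probe sets of the 10 enzymes, in the order of the route, with the live sample as blue circles, the hybridized sample as red diamonds and the limit of 5 as a dashed line. Fdps (10.38 against 7.11) and probe set 1433446_at of Hmgcs1 (11.22 against 8.76) show the widest gaps, and 5 probe sets have a mean under 5.

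In the mevalonate arm, Hmgcs1 (Entrez 208715) encodes the cytosolic synthase that makes HMG-CoA. At its probe set with the highest mean, 1433443_a_at, it read 12.76 on the hybridized array and 13.10 on the live array, a difference of -0.34. Its 3 other probe sets were all higher in the hybridized sample. Probe set 1433444_at read 13.01 against 12.43 (0.58), 1433445_x_at read 12.92 against 12.41 (0.51), and 1433446_at read 11.22 against 8.76, a difference of 2.46 or 5.50-fold. The direction of this gene therefore depended on which of its probe sets was read. The differences within Hmgcs1 spanned 2.80 log2 units, against a median span of 1.48 over 320 genes with at least 4 probe sets at a mean of 5 or more, 86.9% of which had a smaller span.

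Pmvk (Entrez 68603), the phosphomevalonate kinase, read 9.41 after hybridization and 10.24 live on its only probe set. It was lower by 1.78-fold (-0.83), which is within 2-fold. Mvd (Entrez 192156), the decarboxylase that makes isopentenyl diphosphate, read 8.84 against 10.23 on 1448663_s_at, a difference of -1.39 or 2.62-fold lower. Its other probe set, 1417303_at, read 6.20 against 6.44, a difference of -0.24. Both probe sets of Mvd were lower in the hybridized sample, but the 2-fold size was seen on the first alone.

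Idi1 (Entrez 319554), the isomerase that interconverts the isoprenoid units, read 12.09 against 11.82, a difference of 0.27. Its second probe set gave nearly the same difference, 0.25, from 11.13 and 10.88. Fdps (Entrez 110196), the synthase of farnesyl diphosphate, at the branch point between sterols and other isoprenoids, read 10.38 against 7.11 on 1423418_at. This difference of 3.27, or 9.65-fold, exceeded that of 99.9% of the 7262 genes. Fdps was the 1 member at least 4-fold higher, beside 1.2% of all genes, while 0 members were 4-fold lower, beside 1.56% of all genes. Its other probe set, 1438150_at, read 1.83 and 1.98, close to the lowest value in the table (1.02), so it neither repeated the difference nor measured the gene at a usable level. The largest difference of the route thus rests on 1 probe set.

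In the sterol arm, Fdft1 (Entrez 14137), the squalene synthase that draws on the same farnesyl diphosphate, was lower in the hybridized sample. It read 11.67 against 12.43 on 1438322_x_at (-0.76) and 10.73 against 11.47 on 1448130_at (-0.74). These 2 probe sets gave almost the same difference, within 2-fold, and the remaining 2 probe sets had values from 2.41 to 2.80, under the limit. Sqle (Entrez 20775), the squalene epoxidase, read 10.13 against 10.37 on its only probe set, a difference of -0.24. Lss (Entrez 16987), the lanosterol synthase that closes the rings, read 8.89 against 9.85 on 1420014_at, which at -0.96 falls just short of 2-fold. Its second probe set read 8.81 against 9.50 (-0.69), and the third read 6.86 against 6.84, a difference of 0.02.

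Cyp51 (Entrez 13121), the lanosterol demethylase, was higher in the hybridized sample on each of its 3 probe sets. It read 11.72 against 10.67 on 1450646_at, a difference of 1.05 that just passes 2-fold, and 10.56 against 10.19 on 1422533_at, a difference of 0.37. The third, 1422534_at, read 4.99 against 4.63 with a mean just under the limit. Hsd17b7 (Entrez 15490), a ketosteroid reductase of the later steps that removes the keto group left at demethylation, read 5.92 against 4.82 on 1448865_at, a difference of 1.10. Its other probe set read 3.72 and 3.51. Hsd17b7 was the member with the least signal to support its difference, since its live value was under 5.

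The sign of the difference changed 3 times over the members taken in order, leaving out the other measured genes of the route that lie between them. Several of these signs rest on small differences, such as those of Hmgcs1 (-0.34), Idi1 (0.27) and Sqle (-0.24). Centred on the mean of the hybridization controls, Hmgcs1 (0.38) and Sqle (0.48) were higher instead, and the 3 other probe sets of Hmgcs1 were higher as deposited. Hmgcs1, Pmvk and Mvd were lower at their first probe sets, Idi1 and Fdps were higher, the next 3 enzymes, Fdft1, Sqle and Lss, were lower, and Cyp51 and Hsd17b7 were higher again. Of the 5 genes of the mevalonate arm 1 was 2-fold higher and 1 lower, with a median of -0.34. Of the 5 of the sterol arm 2 were higher and 0 lower, with a median of -0.24. Over all genes 8.43% were 2-fold higher and 15.4% lower. The medians of both arms lay close to that of all genes.

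**Figure D2:**
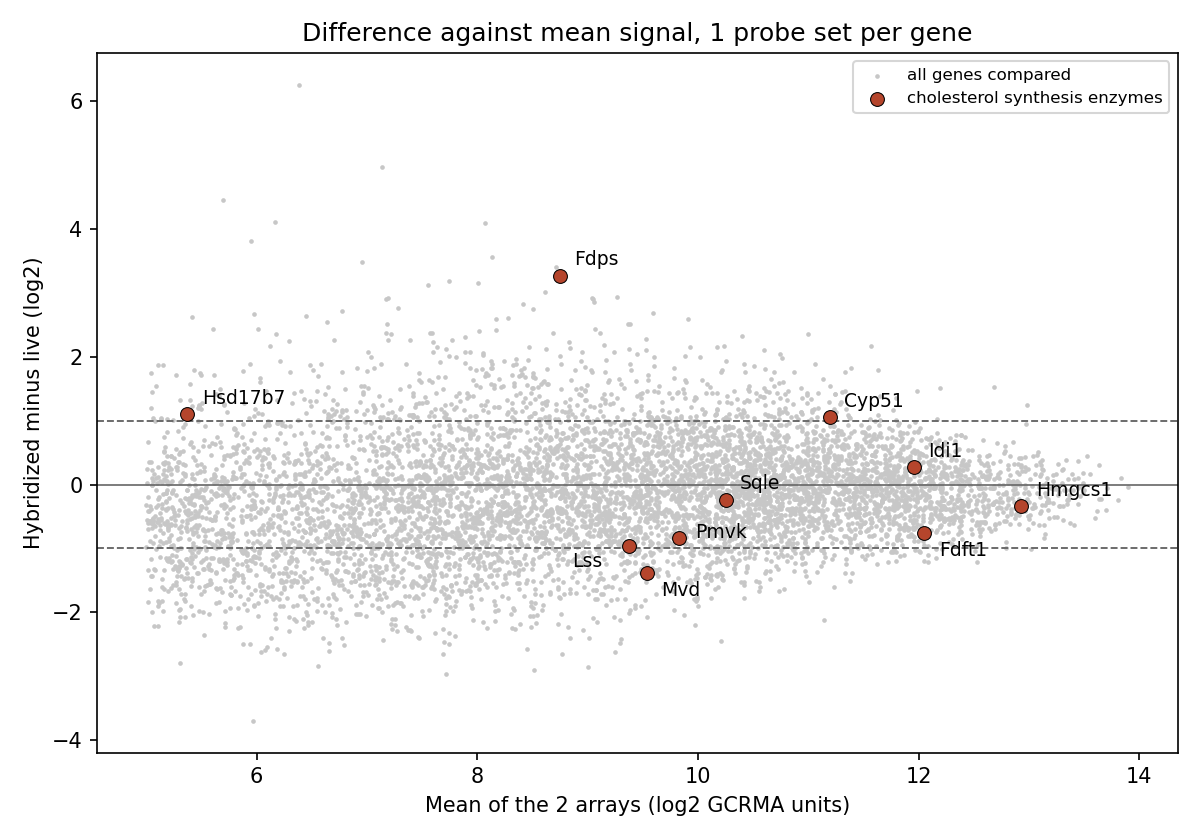
Hybridized minus live difference (log2) against the mean of both arrays (log2) for all 7262 genes in grey and the 10 enzymes in red, 1 probe set per gene, with dashed lines at 2-fold. Fdps stands at 3.27 above most genes of its level, while the other 9 enzymes lie between -1.39 and 1.10, among the grey points.

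Differences between the arrays widened toward low signal, so the members were also set beside genes of like level. The 4 members with a mean of 11 or more were Hmgcs1, Idi1, Fdft1 and Cyp51. In that range 2.83% of 1521 genes were higher by 2-fold or more and 3.48% lower, and Cyp51 was the 1 member past 2-fold. Among 2325 genes with a mean from 9 to under 11, where Pmvk, Mvd, Sqle and Lss lie, 9.12% were higher and 10.6% lower, and Mvd was the 1 member past 2-fold. Fdps lies from 7 to under 9, where 12.4% of 2009 genes were 2-fold higher. Hsd17b7 lies from 5 to under 7, where 7.60% of 1407 genes were 2-fold higher and 28.6% lower.

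Probe sets of a gene served as the only repeat measurement, one that covers neither biological nor preparation error. In 2720 genes a further probe set also had a mean of 5 or more, and the differences at the first and second probe sets were a median of 0.60 apart. Idi1 and Fdft1 were each 0.02 apart and Lss 0.27, closer than that median. Cyp51 was 0.68 apart, Hmgcs1 0.92 and Mvd 1.15, further than it. Of the 4 members past 2-fold, Mvd and Cyp51 had another probe set at the level, with the same sign but within 2-fold, and Fdps and Hsd17b7 had none. Only Mvd and Cyp51 could therefore have been 2-fold apart on both their first and second probe sets, and neither was. The share of the 2720 genes that were so was not counted, so nothing particular to the enzymes is drawn from it.

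**Figure D3:**
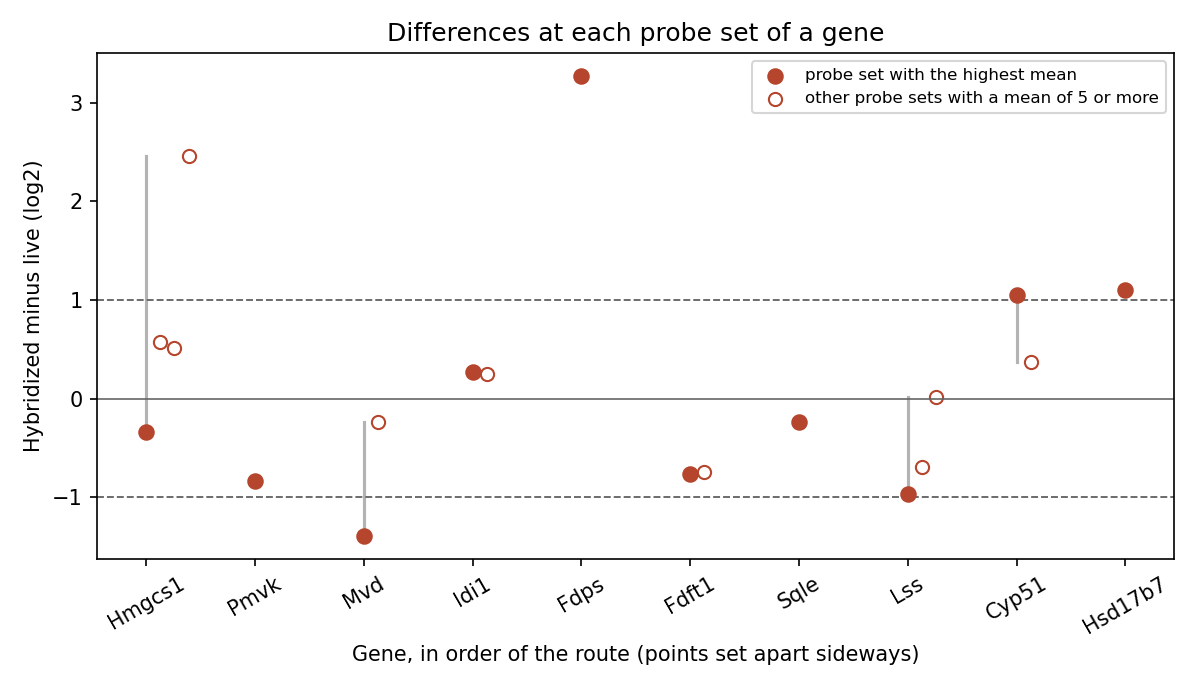
Hybridized minus live difference (log2) at each of the 19 member probe sets whose mean log2 value reached 5, filled for the probe set with the highest mean and open for the others, with grey bars over their range and dashed lines at 2-fold. The 2 points of Idi1 (0.27 and 0.25) and of Fdft1 (-0.76 and -0.74) nearly coincide, whereas those of Hmgcs1 run from -0.34 to 2.46.

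The count of members depended on where the differences were centred and on the fold required. Centred on the median gene, 3 members were 2-fold higher and 1 lower, beside 11.2% and 11.5% of all genes. The hybridization controls, bacterial and phage transcripts added at a set amount, differed by -0.72 on average. Their 18 probe sets ranged from -1.22 to -0.15, so the size of this shift is uncertain. Centring on their mean left 3 members higher and 0 lower, beside 28.0% and 3.5% of all genes. Centring on the median of these controls (-0.80) made Idi1 a 4th higher member at 1.07, with 0 lower, beside 31.8% and 2.84%. A loess correction for level left 3 higher and 1 lower, beside 11.5% and 9.75%, and quantile normalization gave 3 higher and 2 lower, Lss and Mvd, beside 8.04% and 15.6%. At 1.5-fold as deposited, 3 members were higher and 4 lower, namely Pmvk, Mvd, Fdft1 and Lss, beside 17.5% and 29.9% of all genes. Hmgcs1 and Sqle turned from below to above 0 under both centrings on the controls, and Fdft1 did so at the control median (0.04).

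As deposited, the other measured enzymes of the route lay within 2-fold. Of 12 further sterol route genes listed, 9 were measured, all 9 at the level, and 0 were 2-fold higher and 0 lower, with a median of -0.19. Over all genes 8.43% were 2-fold higher and 15.4% lower. The widest were Sc5d, the lathosterol desaturase, at 8.73 against 7.87 (0.86), and Msmo1, the methylsterol oxidase that acts after Cyp51, at 12.01 against 11.25 (0.76). Ebp, the sterol isomerase, read 9.82 against 9.20. On the lower side were Dhcr7, the reductase that makes cholesterol from its dehydro precursor, at 11.02 against 11.72 (-0.70), Erg28, a scaffold of the demethylation complex, at -0.69, and Mvk, the mevalonate kinase, at 6.99 against 7.52. The second probe set of Mvk, with a mean just under the limit, differed by 0.76 in the other direction. Nsdhl (-0.19), a decarboxylating dehydrogenase that acts with Msmo1 and Hsd17b7, and the sterol reductases Tm7sf2 (-0.34) and Lbr (0.23), which is also the lamin B receptor, differed least. Centred on the mean of the controls, 3 of the 9 were 2-fold higher and 0 lower, beside 28.0% and 3.5% of all genes. Centring on the median gene made 1 of the 9 2-fold higher and 0 lower, beside 11.2% and 11.5%. The loess correction also gave 1 higher and 0 lower, beside 11.5% and 9.75%.

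Among genes that sense sterol, switch the route on or turn its enzymes over, 6 of 11 listed had a probe set at the level. Of these 6, 3 were 2-fold lower and 0 were 2-fold higher, beside the 15.4% and 8.43% of all genes, and the median was -0.94. Srebf1, which encodes SREBP-1, read 7.64 against 9.83 (-2.19), and Scap, the escort protein, read 6.96 against 8.40 (-1.44), each on 1 probe set. Mbtps1, the first of the Golgi proteases, read 9.65 against 10.83 (-1.18). Its other probe sets had means under the limit and differed by 0.77, in the other direction, and by -0.05. Srebf2, which encodes SREBP-2, the factor most tied to cholesterol genes, differed by -0.69 on one probe set and 0.13 on the other. Insig2, which retains Scap in the endoplasmic reticulum when sterol is ample, differed by 0.43 on its first probe set, by -0.14 on another and read 7.89 on both arrays on the remaining one. Centred on the mean of the controls, Srebf1 (-1.47) was the 1 gene of the list still 2-fold lower, Insig2 was 2-fold higher on its first probe set, and Srebf2 turned to 0.03. Under that centring 3.5% of all genes were 2-fold lower and 28.0% higher.

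Fatty acid synthesis, which shares SREBP control, had 3 of 16 measured genes at least 2-fold lower, 0 higher and a median of -0.32, beside 15.4% of all genes lower and 8.43% higher. Acss2, which makes acetyl-CoA from acetate, read 8.47 against 10.11 (-1.64) and was also 2-fold lower on its second probe set, at 6.06 against 7.43 (-1.37). Fasn, the fatty acid synthase, read 10.53 against 11.74 (-1.21), and Gpam, a glycerol phosphate acyltransferase, read 8.01 against 9.03 (-1.02). At first probe sets, no gene of this list was 2-fold apart in either direction when centred on the mean of the controls. As deposited, further probe sets at the level passed 2-fold in 3 genes whose first probe set did not. Scd2 was 0.19 at its first, but others read 12.03 against 8.54 (3.49) and 8.09 against 10.77 (-2.68). Me1 (-0.26 at its first) differed by 1.44 on another, and Acly (-0.17 at its first) by 1.27 on one and 0.26 on another. Further probe sets at the level of Elovl5, Elovl6, Fads2, Lpin1 and Scd1 lay within 2-fold. The sign was opposite to that of the first in Elovl6 (-0.53 and 0.19), Fads2 (0.23 and -0.18) and Scd1 (0.15 and -0.25).

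Genes that use or move the products were mixed. The counts below stand beside 8.43% of all genes that were 2-fold higher and 15.4% that were 2-fold lower. Among 8 measured genes of cholesterol uptake and transport, 1 was 2-fold higher and 0 lower, with a median of -0.44. The higher gene was Stard4, a sterol carrier, at 9.36 against 8.23 (1.13), but its second probe set read 6.36 against 7.09 (-0.73). Of the export, ester and oxysterol genes only 3 reached the level, with 2 of them 2-fold higher and 0 lower. These were the exporter Abcg1 at 8.62 against 7.23 (1.39) and the apolipoprotein Apoe at 9.67 against 8.45 (1.22), and the exporter Abca1 differed by 0.32. Of 11 genes of the nonsterol branches fed by Fdps, 1 was 2-fold higher and 1 lower, with a median of -0.32. Rabggtb, a subunit of the transferase that prenylates Rab proteins, read 11.28 against 9.91, and Fntb, the beta subunit of farnesyltransferase, read 8.37 against 10.17 (-1.80). Ggps1, which makes geranylgeranyl diphosphate from the product of Fdps, differed by -0.02 on its first probe set but by 0.45, 1.25 and 2.50 on its 3 others, all at the level.

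**Figure D4:**
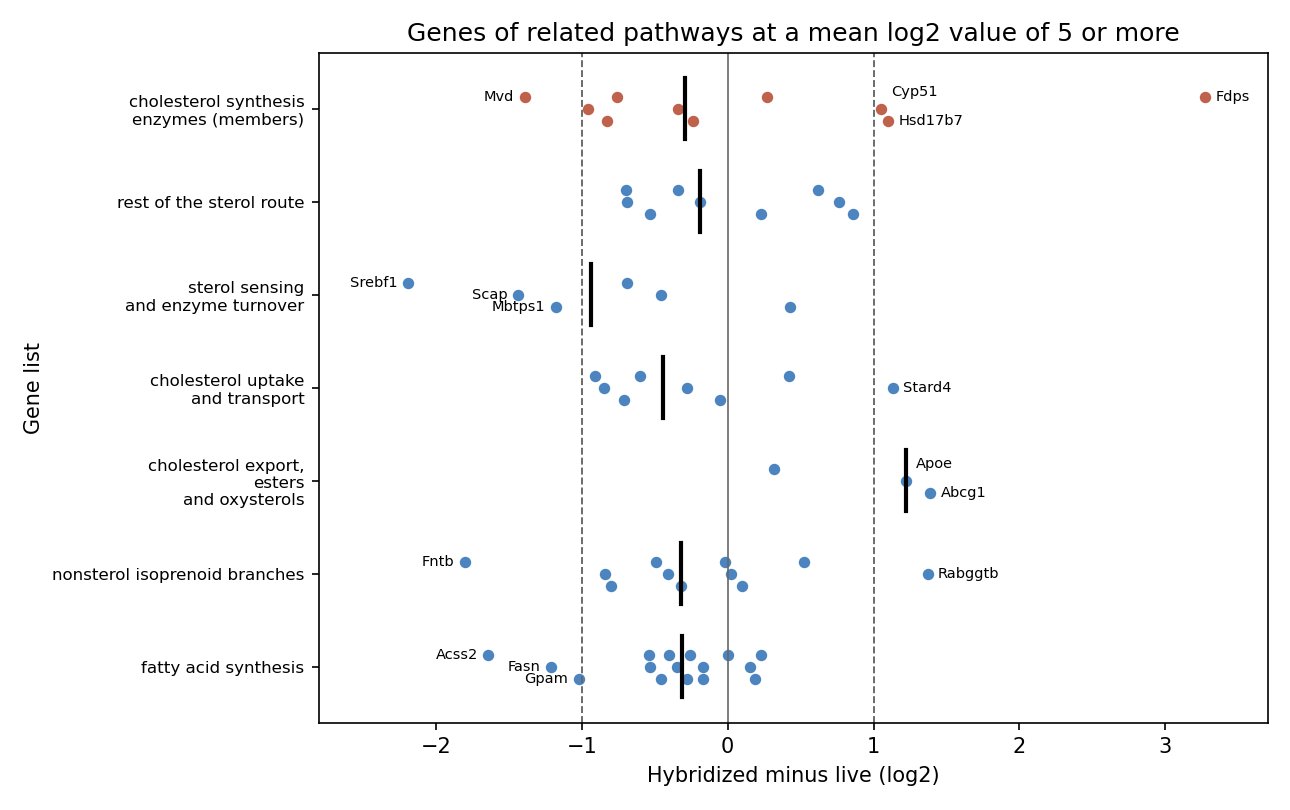
Hybridized minus live difference (log2) of each gene whose mean log2 value reached 5 in the 10 enzymes (red) and 6 related lists (blue), with the median of each list as a black bar, dashed lines at 2-fold and names for genes past 2-fold. The enzymes spread to both sides around a median of -0.29, the sensing genes have a median of -0.94, and no gene of the rest of the sterol route passes 2-fold.

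The samples matched their label. All 10 pluripotency markers listed were at the level, with a median log2 value of 12.04 on the hybridized array and 12.17 on the live one. Of them 0 were 2-fold apart, beside 8.43% of all genes higher and 15.4% lower. Of other cell types, 2 of 11 fibroblast markers (Col1a1 and Vim), 0 of 6 hepatocyte markers, 2 of 6 markers of steroid-making cells (Star and Fdx1) and 4 of 8 trophectoderm markers (Eomes, Krt8, Krt18 and Tfap2c) reached the level. The median values of these lists ran from 2.38 to 5.33 in the hybridized sample and from 2.41 to 5.41 in the live sample. Krt8 (-1.48) was 2-fold lower in the hybridized sample. Col1a1 (4.46 against 6.17) was too, but it passed the limit only through the live array, and its other probe set read 3.93 against 3.53. On the same arrays, the 5′ control probe set of Actb relative to its 3′ probe set was 2.52 higher in the hybridized sample than in the live one, that of Gapdh 1.81 higher and that of Tfrc 0.50 higher, with a live 5′ value of 4.08, under the limit. The part of these differences in the values of the enzymes was not tested.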

How the data were processed

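Trizol LS extraction, NuGEN Ovation amplification and biotin labelling of cDNA are recorded per the labels' protocols. The values the authors deposited, 1 for each probe set on each array, came from GCRMA and affy per the submitters' processing notes and are taken here as log2. The log base was inferred from the range of 1.02 to 14.24, while tool versions and the set of arrays normalized together were not given in the sources used here. Detection calls were not used. Of 22690 probe sets, 64 were controls, and 20380 with 1 gene in the platform table were kept. Symbols were updated by Entrez ID against RefSeq, where 12369 of 12393 genes and all 10 members matched. The files name no genome build.

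Each gene was read at its probe set with the highest mean, a mean of at least 5 was required, and 2-fold was a log2 difference of 1. The members, 6 pathway lists and 5 marker lists were chosen with earlier results of these data known. All members were named. In each pathway list the genes past 2-fold, up to 3 in each direction, were named, with Srebf2 and Dhcr7 whatever their values. Other fixed genes are not analysed here, and further genes were named after their values were seen. Listed genes with no probe set of their own are not analysed here. The procedure was run on simulated data whose shifts were well past 2-fold and alike at all probe sets of a gene. That run checks the code and does not bear on calls near 2-fold. Alternatives were level limits of 4, 7 or none, the mean over probe sets, no suffixed probe sets (_x_at, _s_at or _a_at, whose probes can match several transcripts), centring on the median gene or on the mean of 18 hybridization controls, loess (span 0.3), quantile normalization and folds of 1.5 and 4. Centring on the control median was chosen after seeing the data. Tools were matplotlib 3.10.9, statsmodels 0.14.6, scipy 1.17.1, pandas 2.3.3 and numpy 2.4.6 under Python 3.11.15.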

Additional observations from a re-analysis of the deposited data

How the results depend on the processing

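A value was taken to have moved when it changed by more than 0.73, the SD of the gap between a gene's first and second probe sets over the square root of 2, which covers no replicate error. The level limits cannot change a member's value and the centrings shift all members alike, so they bear only on counts and signs. None of the 4 members past 2-fold changed sign. Leaving out suffixed probe sets also returned the same values for Fdps (3.27), Cyp51 (1.05) and Hsd17b7 (1.10), whose first probe sets carry no such suffix. The tallies that follow therefore include settings that could not change the value. Fdps stayed past 2-fold in each of 10 settings, from 1.56 to 4.07, with the lowest value when its dim probe set was averaged in. Cyp51 was past 2-fold in 9 of 10 (0.59 to 1.85), Hsd17b7 in 8 of 9 (0.66 to 1.90) and Mvd in 6 of 10 (-1.46 to -0.24). The count of members 2-fold higher was 1 with the mean over probe sets and 1 at 4-fold. The count lower was 0 with the mean over probe sets, 0 without suffixed probe sets, 0 under either control centring, 2 after quantile normalization, 4 at 1.5-fold and 0 at 4-fold. Shares of all genes were not worked out for the mean over probe sets or without suffixed probe sets. Whether the members' counts there moved more than those of all genes was not tested. The median over the members, -0.29 as deposited, turned positive under 4 alternatives. It was 0.43 when centred on the control mean, 0.51 on the control median, 0.01 with the mean over probe sets and 0.25 without suffixed probe sets, where Hmgcs1 differed by 0.58 and Mvd by -0.24 and Pmvk had no probe set. At a limit of 7, Hsd17b7 was not measured. No paired analysis was possible because each group has 1 array.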
